A study of Homo sapiens with 24 samples.

Results

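The mRNAs of JMJD6 and of 9 lysine demethylases (KDM1A, KDM2A, KDM2B, KDM3A, KDM3B, KDM4A, KDM5A, KDM5B and KDM6B) were followed during an RNA decay time course. These 10 genes were picked by name from a table of 19798 genes, with their behaviour after loss of CNOT3 already known. Their differences between genotypes are therefore given as a description, with standard errors and without a test. All 10 passed the filter on low values, which kept 10731 genes with a conversion above 0 at the start of the chase (4 libraries) and in 20 or more libraries of 24.

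The method was SLAM-seq, applied to the human embryonic kidney line HEK293T. Cells received the lentiCRISPR_v2 vector, which carries Cas9 and a guide RNA, with either guides against CNOT3 (sgCNOT3-1 and sgCNOT3-2, termed sgCNOT3) or negative control guides (sgNT1 and sgNT2, termed sgNT). Both genotypes were selected in puromycin and labelled with 75 µM 4-thiouridine for 24 h, with the medium replaced every 3 h. Labelling ended with 10 mM UTP, and RNA was collected 0, 1, 2, 4, 8 and 12 h later from 2 libraries per genotype and time. No cloning of the transduced cells is described. Which library received which of the 2 guides is not given in the labels, nor is whether replicates were separate cultures. Iodoacetamide treatment turns labelled uridines into apparent C, and the T-to-C conversion of a gene (in %) reports how much of its RNA predates the chase and says nothing of its amount.

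Lysine demethylases remove methyl groups from histone tails. KDM1A does so as a flavin-dependent amine oxidase, whereas the KDM2 to KDM6 enzymes carry a JmjC domain that uses iron, oxygen and 2-oxoglutarate. JMJD6 belongs to the same JmjC fold and is best known as a lysyl hydroxylase of splicing proteins such as U2AF2. CNOT3 is a subunit of CCR4-NOT, the main cytoplasmic complex that shortens poly(A) tails and so starts the decay of many mRNAs.

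Conversion fell over the chase in all libraries' gene medians, from 32.0% to 35.9% at 0 h to 5.17% and 5.73% at 12 h in sgNT and to 8.54% and 9.84% in sgCNOT3. Replicates correlated across genes at a Spearman rho of 0.64 to 0.76 in 10 of the 12 groups. The sgCNOT3 groups at 2 h (0.34) and 4 h (0.53) stood apart, and in both of them replicate 2 lay below replicate 1 for 9 of the 10 mRNAs described here. The median over all genes was also lower in replicate 2, at 18.75% against 29.1% at 2 h and 16.7% against 20.9% at 4 h. Without replicate 2 at those times, a choice made after seeing the data, the 10 slope differences given below kept their sign. CNOT3 mRNA itself had conversions of 34.7% and 31.5% in sgNT and 62.1% and 81.0% in sgCNOT3 at 0 h. Conversion does not measure its level, so neither the loss of CNOT3 nor markers of the kidney line could be checked in these data. The study examined CNOT3 protein by western blot in HEK293T cells given such guides, and describes the cells as CNOT3-depleted. The words "without CNOT3" below stand for the sgCNOT3 libraries of these depleted cells. Over all 10731 genes, 2324 decayed more slowly and 37 faster in sgCNOT3 (limma, adjusted p under 0.05), or 586 and 654 once each library was centred on its median. The median slope difference was 0.058 log2 units per h, and -0.0076 after centring.

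The study linked the arginine codons CGG, CGA and AGG to recruitment of CNOT3 to translating ribosomes. The stretch of 10 codons richest in them is therefore printed for the 3 mRNAs with the largest share of these codons and the 2 with the smallest. Each stretch is 30 bases of the coding sequence, written 5′ to 3′ in frame, with these codons in capitals, and is the first of several equally rich stretches.
JMJD6: gggacagtgcaccgcAGGaagaagAGGAGG
KDM2B: CGGacaacggcaggagctCGGCGGcgcCGG
KDM2A: ggagccagaCGGagaCGAgtgCGAtgtCGA
KDM3A: gaaagttggccggtattggtggggAGGAGG
KDM1A: gaggggcgtCGGaccagcCGGcgcaagCGG

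In GRCh38, the JMJD6 stretch lies at chr17:76718807-76718836 on the minus strand, in exon 6, the last exon of its canonical transcript. Those of KDM2B (chr12:121453249-121453278, minus strand, exon 13) and KDM2A (chr11:67245312-67245341, plus strand, exon 14) hold 4 such codons each. The KDM3A stretch (chr2:86442066-86442095, plus strand, exon 2) holds 2 and the KDM1A stretch (chr1:23019912-23019941, plus strand, exon 1) holds 3. All 5 are coding.

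Over the whole coding sequence, CGG, CGA and AGG made up 4.96% of the 403 codons of JMJD6 (20 codons), a share above that of 89.8% of 10695 kept genes with a canonical coding sequence. KDM2B (5.09%) and KDM2A (4.91%) held shares close to it, and KDM6B followed with 4.02%. KDM3B, KDM5A, KDM4A and KDM5B lay between 3.11% and 3.52%. KDM3A (2.57%) and KDM1A (2.51%) were below the median of all genes, 2.85%. The codon share thus sets JMJD6 beside the KDM2 pair and apart from KDM1A, as the bar chart of codon shares shows.

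**Figure D1:**
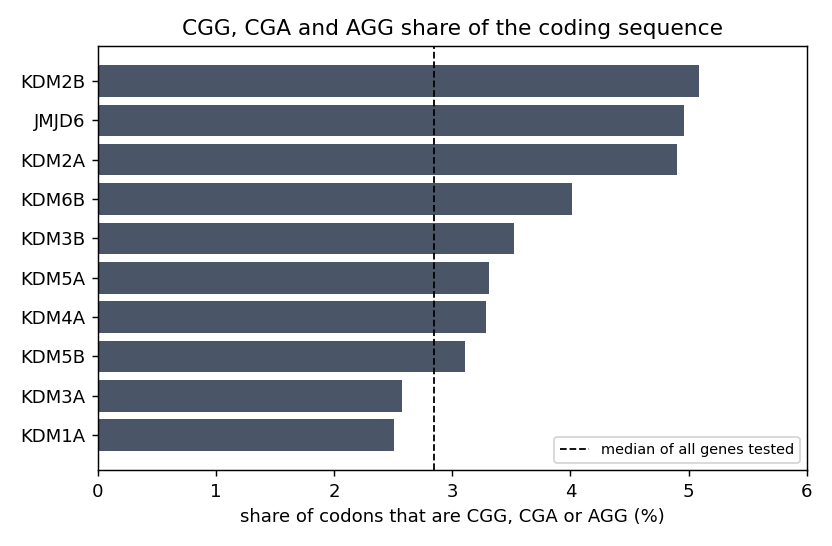
Bars give the share of codons (%) that are CGG, CGA or AGG in the canonical coding sequence of each mRNA, and the dashed line marks the median of all genes tested (2.85%). KDM2B, JMJD6 and KDM2A have the longest bars, and KDM3A and KDM1A end left of the line.

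JMJD6 mRNA lost nearly all label within 12 h in the control and kept much of it without CNOT3. The gene lies on chromosome 17 (76712832 to 76726799, minus strand). At 0, 1, 2, 4, 8 and 12 h in turn, its conversion in sgNT was 32.4%, 37.8%, 20.8%, 18.7%, 4.82% and 1.25% in replicate 1 and 36.4%, 31.2%, 26.2%, 23.9%, 2.82% and 1.09% in replicate 2. In sgCNOT3 the values were 28.8%, 22.6%, 24.7%, 31.7%, 25.1% and 10.7% in replicate 1 and 26.7%, 38.3%, 23.1%, 26.1%, 23.3% and 18.8% in replicate 2. The sgCNOT3 libraries lay below the sgNT libraries at 0 h, overlapped with them at 1 and 2 h, and lay above them at 4, 8 and 12 h.

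In the control, JMJD6 conversion dropped between 4 and 8 h, and without CNOT3 it stayed near its starting value until 8 h. The 8 h means were 3.82% ± 1.42 in sgNT and 24.2% ± 1.26 in sgCNOT3 (SD, n = 2), a ratio of 6.34. At 12 h they were 1.17% ± 0.11 and 14.8% ± 5.75, a ratio of 12.6. The log2 slope was -0.40 per h in sgNT and -0.07 per h in sgCNOT3, and the slope difference was 0.33 ± 0.035 (SE), with 0.29 from replicate 1 and 0.37 from replicate 2.

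That slope difference ranked 245 of 10731 by size. The rank is a description only, because JMJD6 was chosen with this contrast in view. The JMJD6 slope difference was 0.33 without the sgCNOT3 libraries of replicate 2 at 2 and 4 h. As a half-life, a single exponential curve gave 3.50 h for sgNT (3.41 and 3.58 h in the replicates) and 16.9 h for sgCNOT3 (16.0 and 18.0 h). The sgNT half-life was longer than that of 20.8% of the 7833 genes with curves within the error limit, and the sgCNOT3 half-life longer than that of 79.3%, while the medians of those genes were 5.61 and 7.41 h. Since the chase ended at 12 h, the sgCNOT3 half-life lies beyond the observed times.

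**Figure D2:**
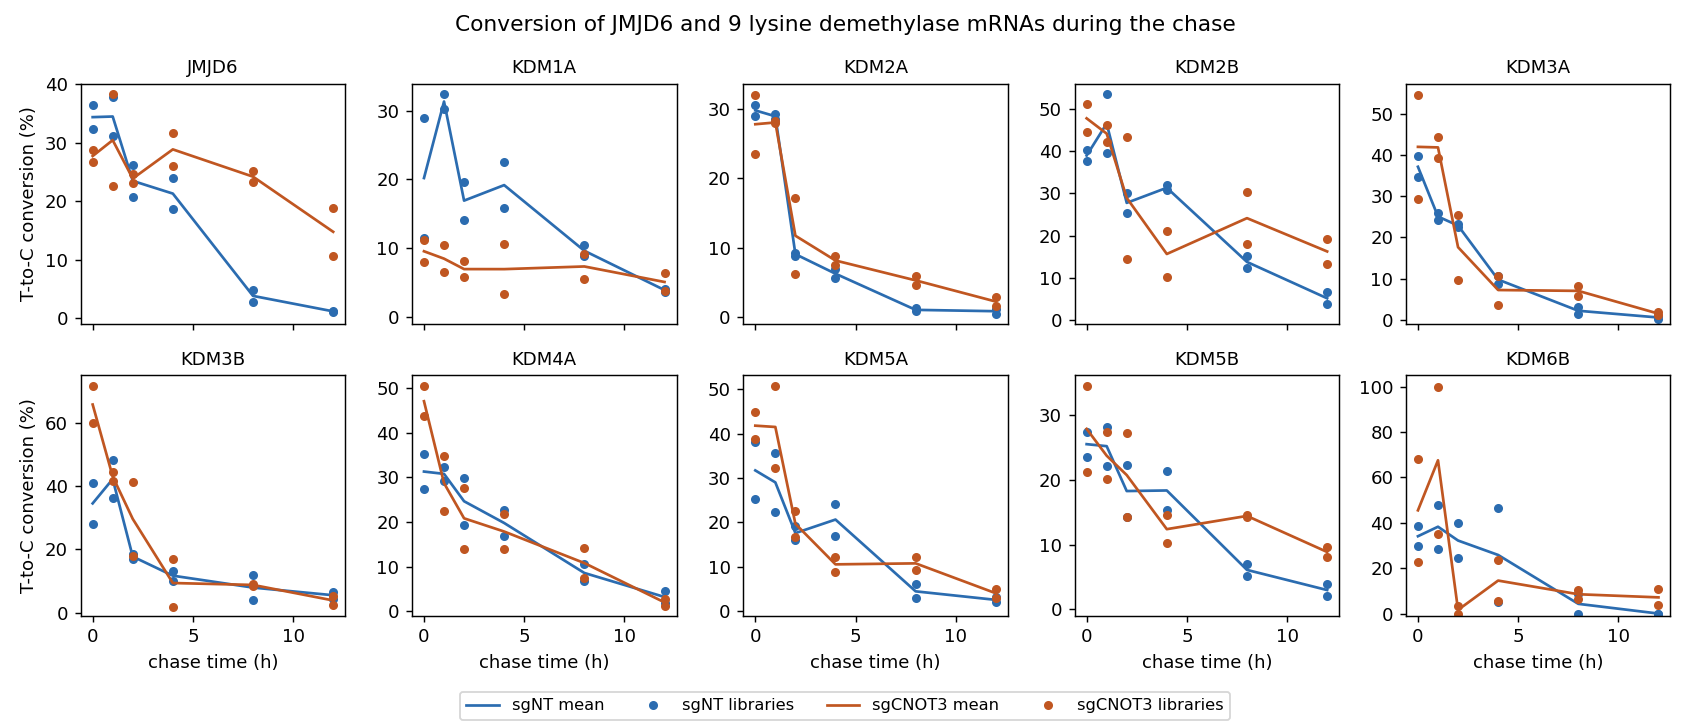
Each panel plots T-to-C conversion (%) of an mRNA against chase time (h), with points for the libraries and lines for the means of 2 libraries in sgNT (blue) and sgCNOT3 (orange). The JMJD6 lines part after 4 h to 3.82% and 24.2% at 8 h, while the KDM1A lines are apart from the start and meet at 12 h.

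KDM1A (LSD1) takes methyl groups off H3K4 as the catalytic subunit of the CoREST complex, and its course had another shape. In sgNT, KDM1A conversion from 0 to 12 h was 28.9%, 32.5%, 19.7%, 15.8%, 8.81% and 3.72% in replicate 1 and 11.5%, 30.2%, 14.2%, 22.5%, 10.5% and 4.16% in replicate 2. The sgCNOT3 libraries gave 7.98%, 10.5%, 5.83%, 3.35%, 9.15% and 6.43% in replicate 1 and 11.2%, 6.53%, 8.13%, 10.6%, 5.57% and 3.79% in replicate 2. The sgCNOT3 libraries lay below both controls from 0 to 4 h and overlapped with them at 8 and 12 h. The smaller slope (-0.20 per h in sgNT and -0.06 in sgCNOT3, difference 0.14 ± 0.050) thus went with a lower start, and at 12 h the means were 3.94% ± 0.31 and 5.11% ± 1.86 (SD, n = 2).

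How much the KDM1A slope differed varied between replicates, with 0.23 from replicate 1 and 0.06 from replicate 2. The curves could not fix its half-life either: the residual error in sgNT was above the limit of 0.3, and the sgCNOT3 replicates gave 24.0 h, the largest value allowed, and 10.7 h.

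KDM2A and KDM2B, which demethylate H3K36 and bind unmethylated CpG DNA through a zinc finger, both had more label left at the end of the chase in sgCNOT3. KDM2A conversion in sgNT at the 6 times in turn was 30.5%, 29.2%, 8.83%, 5.59%, 1.28% and 1.20% in replicate 1 and 29.0%, 28.6%, 9.29%, 6.91%, 0.81% and 0.50% in replicate 2. Without CNOT3, replicate 1 gave 23.5%, 27.9%, 17.2%, 8.83%, 4.69% and 2.94% and replicate 2 gave 32.0%, 28.2%, 6.27%, 7.47%, 5.89% and 1.53%. The genotypes did not overlap from 4 h on, with sgCNOT3 above, and the ratio of means was 5.06 at 8 h and 2.63 at 12 h.

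KDM2A had the shortest sgNT half-life of the 10, 1.72 h, and still decayed quickly without CNOT3, at 2.40 h (3.27 and 1.61 h in the replicates). Its slope difference of 0.14 ± 0.060 equalled that of KDM1A but came from a control slope of -0.42 per h. KDM2A was the only one of the 10 besides JMJD6 whose sgCNOT3 libraries lay above both controls at 4, 8 and 12 h. Of all genes tested, 17.8, 51.8 and 51.9 percent lay above at these times taken singly. The share above at all of them was not computed, so nothing is read from this.

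KDM2B, the subunit that brings the variant Polycomb complex PRC1.1 to CpG islands, decayed more slowly in the control than KDM2A. In sgNT, KDM2B conversion from 0 to 12 h was 37.8%, 39.6%, 25.4%, 31.9%, 12.3% and 6.54% in replicate 1 and 40.2%, 53.5%, 30.1%, 30.8%, 15.1% and 3.68% in replicate 2. In sgCNOT3 the values were 51.1%, 42.1%, 43.5%, 21.0%, 30.2% and 13.2% in replicate 1 and 44.4%, 46.2%, 14.4%, 10.3%, 18.0% and 19.3% in replicate 2. The sgCNOT3 libraries were above the controls at 0, 8 and 12 h and below them at 4 h, so the course did not fall steadily.

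At 12 h the KDM2B means were 5.11% ± 2.02 and 16.2% ± 4.28 (SD, n = 2), a ratio of 3.17. The slope difference was 0.14 ± 0.051, with 0.07 and 0.20 from the replicates. Half-lives were close, 5.13 h for sgNT and 6.15 h for sgCNOT3, and the replicates of sgCNOT3 (6.88 and 4.66 h) bracketed the sgNT value.

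KDM3A and KDM3B remove methyl groups from H3K9. KDM3A had the second steepest control slope of the 10 (-0.46 per h). Its conversion in sgNT at the 6 times in turn was 34.6%, 24.2%, 22.5%, 10.8%, 3.05% and 0.90% in replicate 1 and 39.6%, 25.9%, 23.3%, 8.80%, 1.40% and 0.28% in replicate 2. The sgCNOT3 libraries gave 54.5%, 39.2%, 25.5%, 10.8%, 5.78% and 1.92% in replicate 1 and 29.3%, 44.4%, 9.72%, 3.73%, 8.31% and 1.12% in replicate 2. The sgCNOT3 libraries were above the controls at 1, 8 and 12 h, and the label was nearly gone in both genotypes at 12 h (0.59% ± 0.44 and 1.52% ± 0.57, SD, n = 2).

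The slope and the pooled half-life of KDM3A differed in sign. Its slope difference was 0.11 ± 0.060, whereas the half-life from both replicates was 2.24 h for sgNT and 1.99 h for sgCNOT3. The replicates did not share that direction, with 2.51 and 1.88 h in replicate 1 and 2.02 and 2.14 h in replicate 2. The slope was fitted on a log scale and the curve on the linear scale.

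KDM3B had the lowest slope difference of the 10, -0.08 ± 0.082. In sgNT, KDM3B conversion from 0 to 12 h was 28.0%, 48.1%, 18.5%, 10.1%, 3.97% and 4.35% in replicate 1 and 41.0%, 36.2%, 16.9%, 13.2%, 11.9% and 6.67% in replicate 2. Without CNOT3, replicate 1 gave 71.4%, 41.5%, 41.4%, 17.0%, 9.09% and 2.53% and replicate 2 gave 60.0%, 44.4%, 17.8%, 1.74%, 8.43% and 5.19%. The genotypes were apart only at 0 h, where the sgCNOT3 mean was 1.90 times that of sgNT. Half-lives were 2.98 h in sgNT and 1.69 h in sgCNOT3.

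KDM4A, which acts on H3K9 and H3K36, gave a similar picture. Its conversion in sgNT at the 6 times in turn was 27.4%, 32.4%, 29.9%, 22.6%, 6.70% and 1.79% in replicate 1 and 35.2%, 29.2%, 19.4%, 17.0%, 10.5% and 4.66% in replicate 2. In sgCNOT3 the values were 43.8%, 34.9%, 27.7%, 21.7%, 7.45% and 1.31% in replicate 1 and 50.4%, 22.6%, 14.0%, 14.1%, 14.2% and 2.72% in replicate 2. Beyond 0 h, where sgCNOT3 was above, the libraries of the genotypes overlapped at every time. The slope difference of -0.04 ± 0.047 was smaller than its standard error, and half-lives were 4.44 h in sgNT and 2.74 h in sgCNOT3.

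KDM5A and KDM5B, which remove methyl groups from H3K4, differed from each other at the end of the chase. In sgNT, KDM5A conversion from 0 to 12 h was 38.0%, 22.3%, 16.0%, 17.0%, 2.92% and 3.16% in replicate 1 and 25.4%, 35.7%, 19.2%, 24.3%, 6.10% and 2.02% in replicate 2. The sgCNOT3 libraries gave 44.9%, 50.6%, 22.6%, 12.3%, 9.34% and 5.08% in replicate 1 and 38.7%, 32.3%, 16.7%, 8.81%, 12.3% and 3.08% in replicate 2. The sgCNOT3 libraries were above at 0 and 8 h, below at 4 h and overlapping at 12 h. The slope difference was 0.05 ± 0.048, about the size of its standard error. Half-lives were 3.69 h for sgNT (2.51 and 4.71 h in the replicates) and 2.56 h for sgCNOT3 (2.62 and 2.45 h), so the shorter sgCNOT3 value came from replicate 2.

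KDM5B conversion in sgNT at the 6 times in turn was 27.5%, 28.3%, 22.3%, 15.3%, 5.12% and 2.07% in replicate 1 and 23.6%, 22.2%, 14.3%, 21.5%, 7.08% and 3.91% in replicate 2. Without CNOT3, replicate 1 gave 34.6%, 27.4%, 27.3%, 14.6%, 14.2% and 8.06% and replicate 2 gave 21.3%, 20.2%, 14.3%, 10.2%, 14.7% and 9.69%. The genotypes overlapped at 0, 1 and 2 h, sgCNOT3 lay below at 4 h, and it lay above at 8 and 12 h. At 12 h the means were 2.99% ± 1.30 and 8.88% ± 1.15 (SD, n = 2), a ratio of 2.97.

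The replicates gave like slopes for KDM5B. The difference was 0.14 ± 0.037, with 0.15 from replicate 1 and 0.14 from replicate 2. Half-lives were 4.54 h in sgNT and 6.91 h for sgCNOT3, where the replicates gave 5.33 and 11.2 h.

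KDM6B, a demethylase of H3K27, had the least stable values. In sgNT, KDM6B conversion from 0 to 12 h was 29.7%, 48%, 40.0%, 5%, 0% and 0% in replicate 1 and 38.5%, 28.6%, 24.4%, 46.7%, 8.57% and 0% in replicate 2 (0% where listed at 0). In sgCNOT3 the values were 68.2%, 35.1%, 3.23%, 23.5%, 6.45% and 3.64% in replicate 1 and 22.9%, 100%, 0%, 5.56%, 10.6% and 10.6% in replicate 2. Replicates differed by up to 64.9 percentage points, and a value listed at 0 can mean no converted read or no read, since the table gives no read numbers.

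The KDM6B slope difference of 0.46 ± 0.17 was the largest of the 10 and also the least certain. It was 0.25 with a pseudocount of 5% and 0.68 with 0.2% of the median 0 h conversion, in place of 1%. The residual errors of its curves were above the limit, and their half-lives went the other way (4.00 h with sgNT, 2.00 h with sgCNOT3).

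Across the 10 mRNAs, slope differences ran from -0.08 (KDM3B) to 0.46 (KDM6B) with a median of 0.14, and 8 of 10 were above 0, as were 81.7% of all genes. Of the 10, 3 were among the genes called slower, beside a background of 21.7 percent of all genes tested. Among those called faster were 0 of the 10, beside 0.345 percent. At an unadjusted p under 0.05 (limma) the counts were 6 and 0, beside 3577 and 121 of all 10731 genes. Once libraries were centred, the slope differences were 0.39 for KDM6B, 0.26 for JMJD6, 0.05 to 0.08 for KDM1A, KDM2A, KDM2B, KDM3A and KDM5B, -0.02 for KDM5A, -0.11 for KDM4A and -0.14 for KDM3B. Nothing is read from the counts of calls, because the same contrast was in view when the genes were chosen.

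**Figure D3:**
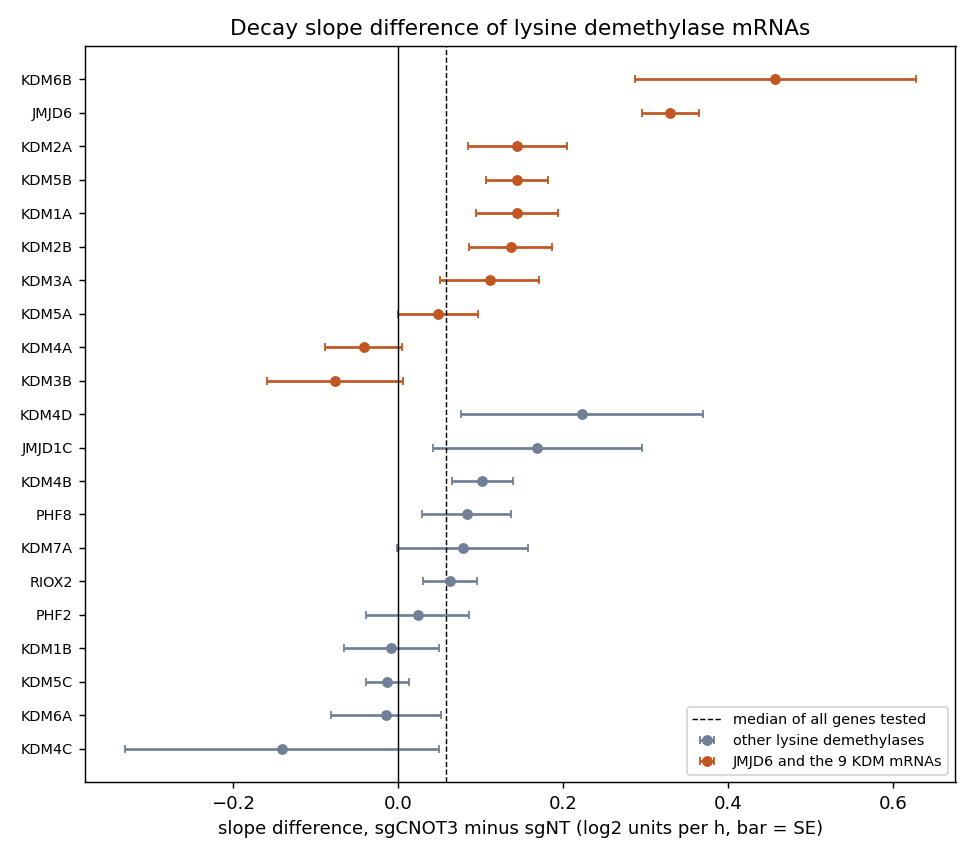
Points give the slope difference (sgCNOT3 minus sgNT, log2 units per h) with its standard error for JMJD6 and the 9 KDM mRNAs (orange) and for 11 other lysine demethylase mRNAs (grey), and the dashed line is the median of all genes tested (0.058). JMJD6 (0.33 ± 0.035) lies right of all but KDM6B, whose bar is much wider (0.46 ± 0.17).

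In sgNT the slopes ordered the mRNAs from KDM6B (-0.60 per h) through KDM3A, KDM2A, JMJD6, KDM5A, KDM4A, KDM5B, KDM2B and KDM3B to KDM1A (-0.20 per h). Between neighbours in this order, only KDM6B and KDM3A (gap 0.14, combined standard error 0.13) and JMJD6 and KDM5A (gap 0.10, combined standard error 0.042) were further apart than 1 standard error. In sgCNOT3 the order ran from KDM3A (-0.35 per h) through KDM4A, KDM3B, KDM2A, KDM5A, KDM6B, KDM5B, KDM2B and JMJD6 to KDM1A (-0.06 per h), and no neighbours were further apart than 1 standard error. JMJD6 moved from the fourth steepest slope to the second flattest.

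The genotypes were also compared at each time. At 8 h the sgCNOT3 libraries of 6 of the 10 lay above both controls and 0 lay below, beside 51.8 and 9.01 percent of all genes. At 12 h the counts were again 6 and 0, beside 51.9 and 8.28 percent. The 6 at 12 h include KDM6B, whose sgNT libraries were both listed at 0. At 4 h, 2 lay above and 4 below (17.8 and 32.4 percent), and at 2 h, 0 lay above and 2 below (20.4 and 18.5 percent). The 2 below at 2 h include KDM6B, whose sgCNOT3 replicate 2 was listed at 0. At 1 h, 1 lay above and 2 below (31.3 and 22.8 percent), and at 0 h, 4 lay above and 2 below (29.1 and 25.9 percent).

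The median log2 difference of the 10 was 1.24 at 8 h and 1.09 at 12 h, next to 0.48 and 0.65 for all genes, and -0.57 at 4 h, next to -0.16. The medians at 8 and 12 h include KDM6B, which had sgNT libraries listed at 0 at these times. The map of differences by time shows that JMJD6, with 2.60 at 8 h and 3.27 at 12 h, exceeded each of the other 8 that could be compared.

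**Figure D4:**
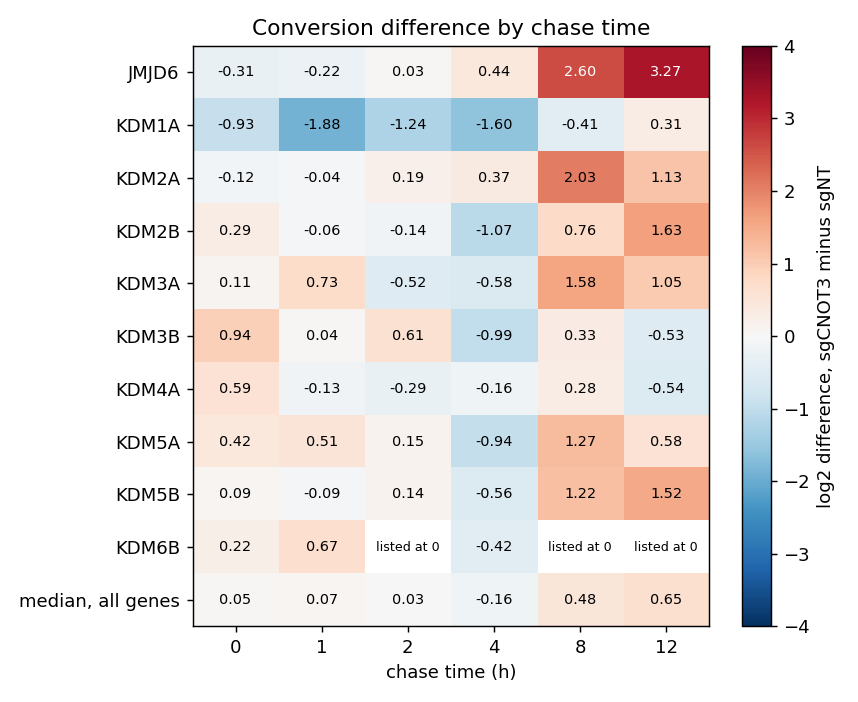
Each cell gives the mean log2 difference in conversion (sgCNOT3 minus sgNT, with a pseudocount of 0.34 percentage points) of an mRNA (rows) at a chase time in h (columns). The bottom row gives the median of all genes, and cells with a library listed at 0 carry the words "listed at 0" in place of a value. JMJD6 darkens to 2.60 and 3.27 at 8 and 12 h, and KDM1A is below 0 up to 8 h (-0.93 to -0.41 at the ends).

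Over the 24 libraries, the mRNAs whose log2 conversion moved most like that of JMJD6 were FEM1A (Pearson's r = 0.97), a substrate receptor of ubiquitin ligases, and BRD2 (0.97), a reader of acetylated histones. POLR1C (0.96), a subunit shared by RNA polymerases I and III, ZNF282 (0.96), a zinc finger protein, and TWNK (0.96), the mitochondrial DNA helicase, followed. Among the demethylases, KDM5B (0.88) came closest to JMJD6, then KDM2A (0.83) and KDM2B (0.81), with KDM3B (0.53) and KDM1A (0.42) farthest. All these series share their libraries and the common fall over the chase, so the coefficients are a description. FEM1A means fell from 19.4% to 0.58% in sgNT and from 20.1% to 7.02% in sgCNOT3 between 0 and 12 h.

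JMJD6 lies head to head with METTL23, a methyltransferase gene on the opposite strand whose annotated start is 30 bases away. METTL23 started at 31.8% and 41.1% in the sgNT libraries, against 23.1% and 19.9% in those of sgCNOT3. It ended at 5.76% and 5.34% in sgNT, against 22.8% and 18.8% in sgCNOT3. As for JMJD6, the sgCNOT3 libraries were below the controls at the start and above them at the end. The METTL23 slope difference was 0.27 ± 0.039 (limma, adjusted p = 5.9e-05). MXRA7, which ends its span 1827 bases from that of JMJD6 on the same strand, was nearly flat in both genotypes, with a slope difference of -0.01 ± 0.022 that did not pass (adjusted p = 0.79).

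The other lysine demethylases, chosen as a list with earlier results known, held 11 measured mRNAs out of 15. Over all genes tested, 21.7 percent were slower and 0.345 percent faster, which is the background for each list below. Of the 11, 1 was slower, 0 faster and 10 did not pass, with a median of 0.063 next to 0.058 for all genes. The slower one was KDM4B, an H3K9 demethylase (0.10 ± 0.037, limma, adjusted p = 0.049), a call that was lost in 27 of 36 alternative fits. The highest values were those of KDM4D (0.22 ± 0.15) and JMJD1C (0.17 ± 0.13) and the lowest those of KDM4C (-0.14 ± 0.19) and KDM6A (-0.01 ± 0.066), none of which passed. KDM4B, KDM4C and KDM4D are paralogs of KDM4A, JMJD1C is one of KDM3A and KDM3B, and KDM6A is one of KDM6B. Of these relatives, KDM4C and KDM6A had values below 0 that were smaller than their standard errors.

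Of 7 other JmjC proteins, 1 was slower, 0 faster and 6 did not pass (median 0.078). HSPBAP1, which binds a small heat shock protein, was the slower one (0.20 ± 0.064, limma, adjusted p = 0.029), a call lost in 8 of 35 alternative fits. Among these were a 5% pseudocount (0.11), centring (0.13), and the fits without sgNT 12 h replicate 1 (0.11) or without sgCNOT3 12 h replicate 2 (0.20). JMJD7 followed (0.14 ± 0.094, not passed). HIF1AN, the asparagine hydroxylase of HIF, was lowest (-0.10 ± 0.050, not passed), and JMJD8 was at 0.02 ± 0.014 (not passed). Other iron and 2-oxoglutarate dependent dioxygenases, which hydroxylate or demethylate DNA, RNA and proteins, had 6 slower, 0 faster and 17 not passed of 23 measured out of 28 (median 0.074). P3H1, a collagen prolyl hydroxylase, was slower (0.23 ± 0.067, limma, adjusted p = 0.015), and TET1, a DNA demethylase, had a higher value that did not pass (0.27 ± 0.19). PLOD2 (-0.03 ± 0.048) and ALKBH8 (0.01 ± 0.033) were lowest and did not pass.

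The enzymes that write lysine methylation had 9 slower, 0 faster and 17 not passed of 26 measured out of 28 (median 0.075). Of all genes tested, 21.7 percent were slower. The slower mRNAs included SUV39H1, an H3K9 methyltransferase (0.22 ± 0.045, limma, adjusted p = 0.0012), and SETD1A, an H3K4 methyltransferase (0.21 ± 0.056, limma, adjusted p = 0.011). SETDB1 (-0.0012 ± 0.016) and KMT5C (0.00065 ± 0.14) were lowest and did not pass. Without sgNT 12 h replicate 2, 5 of the list were slower.

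Partner proteins of the members were compared in the same way. Of 10 measured CoREST subunits and partners of KDM1A (11 listed), 0 were slower and 0 faster by limma at the adjusted threshold. At an unadjusted p under 0.05 (limma) the counts were 1 and 0, beside 3577 and 121 of all 10731 genes. The median slope difference of the list was 0.046. RCOR1, the CoREST scaffold, was highest (0.28 ± 0.11, adjusted p = 0.070), followed by GSE1 (0.17 ± 0.098), and HMG20B (0.0048) was lowest. The count of slower mRNAs was 1 without sgNT 0 h replicate 2, sgNT 12 h replicate 2 or sgCNOT3 2 h replicate 2. Of 8 measured PRC1.1 subunits, the complex of KDM2B, 4 were slower, 0 faster and 4 did not pass, with a median of 0.15. The background was 21.7 percent slower over all genes. Nothing is read from this count, because the list was chosen with earlier results known. The slower ones were BCOR, a scaffold of the complex (0.17 ± 0.042, limma, adjusted p = 0.0048), PCGF1 (0.17 ± 0.054, 0.028), RNF2 (0.14 ± 0.028, 0.0011) and YAF2 (0.15 ± 0.044, 0.014). BCORL1 had the highest value (0.19) without passing, and RING1 (0.01 ± 0.017) and USP7 (0.01 ± 0.039) were lowest. Without sgNT 12 h replicate 2, 2 were slower.

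Of 3 partners and substrates of JMJD6, 2 were slower, beside 21.7 percent of all genes tested. U2AF2, the large subunit of the splicing factor that binds the polypyrimidine tract, had a slope difference of 0.05 ± 0.014 (limma, adjusted p = 0.0065), and LUC7L2, a U1 snRNP-associated protein, had 0.11 ± 0.019 (adjusted p = 2.0e-04). Both were well under the 0.33 of JMJD6.

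These list counts moved with the chase window and the scaling. With 0 to 8 h only, 2 methyltransferases, 2 other dioxygenases, 1 partner of JMJD6 and 0 of the other lysine demethylases and other JmjC proteins were slower. When libraries were centred on their medians, 0 genes of the 7 lists were slower by limma at the adjusted threshold, and KDM5C (-0.08), HIF1AN (-0.16) and SETDB1 (-0.07) were among those called faster. METTL23 was called slower after centring too (0.20).

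Lengths and 3′ end motifs of the 10 mRNAs were set beside those of all genes as a description, and no difference was tested. Coding sequences ran from 403 codons in JMJD6 to 1761 in KDM3B, and JMJD6 alone was below the median of all genes, 445 codons. Its canonical 3′ UTR of 278 bases was the shortest of the 10, and those of KDM5A (5399 bases) and KDM5B (4541 bases) were the longest, next to a median of 1384 bases. In the last 300 bases of the transcript, read on the sense strand, the AU-rich pentamer ATTTA occurred in 7 of the 9 members with a long enough 3′ UTR and in 50.8% of 9227 genes. The Pumilio motif TGTANATA occurred in 0 of 9 and in 10.8% of genes, which says only that these letters are not in that window.

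The other codon classes did not set JMJD6 apart. The codons of asparagine, lysine, isoleucine, tyrosine, phenylalanine and methionine and the threonine codon ACU made up 24.8% of its coding sequence, next to a median of 24.7%. KDM6B was the exception among the 10, with 15.2%, a share above that of 7.94% of genes, and the other 8 lay between 22.1% and 25.7%. The remaining arginine codons CGC, AGA and CGU made up 2.98% of JMJD6 codons (median 2.64%).

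Reads of 3′ end libraries fall near transcript ends, and some members share theirs with other genes. The last 300 bases of KDM1A and KDM2A are overlapped by long noncoding RNAs and those of KDM2B by RNF34, all on the opposite strand. Those of KDM4A are overlapped by a protein-coding gene model on its own strand and by KDM4A-AS1. Whether strand was used in counting is not stated, so the values of these 4 mRNAs are uncertain in this respect. The JMJD6 gene extends 5619 bases beyond the end of its canonical transcript, and which end was counted is not stated.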

How the data were processed

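The authors deposited a table of T-to-C conversion ratios per gene and library, as a fraction from 0 to 1, printed here in percent. Libraries were 3′ end libraries (QuantSeq FWD) aligned to GRCh38, and the submitters' processing notes name bcl2fastq. For the aligner, the conversion caller and the annotation, names and versions were not given in the sources used here. Whether ratios count reads or T positions is not stated. The table holds no read numbers, so read depth is unknown, no counting interval is given, and precision is known only from the spread of 2 libraries. The 24 libraries were grouped by title into 12 groups.

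Kept were genes with values above 0 in the 4 libraries of 0 h and in 20 or more of 24 libraries (10731 of 19798, 54.2%). Slopes of log2(conversion + 0.34 percentage points, 1% of the median at 0 h) over chase time were modelled in R 4.3.3 with limma 3.58.1 (genotype, time and interaction, trend on, two-sided, Benjamini-Hochberg over all kept genes, threshold 0.05). On this scale changes of genes near 0 are understated. A gene is termed slower where its slope difference is above 0, and faster where it is below 0, with adjusted p under the threshold. As the labels do not name separate cultures, p-values reflect the spread of libraries that may be technical replicates. Half-lives came from a single exponential with a fitted starting value, limited to 24 h, with a residual standard error of at most 0.3 relative to the 0 h mean. Positions, coding sequences and UTRs are those of GENCODE release 44 on GRCh38, matched by identifier without version. Python 3.11.15 was used with pandas 2.3.3, numpy 2.4.6, matplotlib 3.10.9 and scipy 1.17.1. The model was tested on simulated data.

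The members and lists were chosen with earlier results of these data known. Named were all 10 members, the 2 highest and 2 lowest genes of each list, neighbours of JMJD6, the 5 mRNAs most like it, and CNOT3. Other genes named beside small counts were picked once their values had been seen. Some genes that this rule names are not reported here. The PRC1.1 list had 9 genes, of which RYBP was not analysed here. Same-numbered libraries of the genotypes did not deviate together (r of -0.038 to 0.021 at the 6 times), so numbers were not treated as pairs. Alternatives varied the pseudocount, the filter, centring, the chase times, the trend option, the block and the libraries left out.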

Additional observations from a re-analysis of the deposited data

Results flagged for a closer look

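Leaving out times with a library listed at 0, the genotypes of 5 of the 10 mRNAs were fully apart in opposite directions at different chase times. The change in the log2 difference (sgCNOT3 minus sgNT, later time minus earlier) was not tested in any of these cases. KDM6B is not counted, as its sgCNOT3 libraries lay below at 2 h and above at 12 h, each time with a library listed at 0. The share of all genes with such opposite directions was not computed, so nothing is read from the count. JMJD6 was below the controls at 0 h and above them later, a change of 0.74 to 4 h, 2.91 to 8 h and 3.57 to 12 h. KDM2A was just below at 1 h and above later, a change of 0.41 to 4 h, 2.08 to 8 h and 1.17 to 12 h. KDM2B was above at 0 h and below at 4 h (-1.36), and then above again at 8 h (1.83 from 4 h) and 12 h (2.70 from 4 h). KDM5A likewise changed by -1.36 from 0 to 4 h and by 2.21 from 4 to 8 h. KDM5B changed by 1.77 from 4 to 8 h and by 2.08 from 4 to 12 h. The cases of KDM2B, KDM5A and KDM5B all include the sgCNOT3 4 h group, whose replicates had a Spearman rho of 0.53 and library medians of 20.9% and 16.7%.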

How the results depend on the processing

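Over all genes, 2324 were slower and 37 faster as reported, 586 and 654 with each library centred on its median, 1244 and 24 with chase times 0 to 8 h, and 91 slower with 0 to 4 h. Leaving out either replicate number or a single library gave 426 to 2545 slower and 1 to 49 faster genes, the lowest counts without replicate 1 (426 and 1). Without replicate 2 they were 532 and 22. With the replicate block they were 2325 and 33, and the block was a shared number only. Without the sgCNOT3 libraries of replicate 2 at 2 and 4 h they were 2242 and 52. The JMJD6 slope difference ranged from 0.19 (0 to 4 h) to 0.37 over 36 alternatives and was 0.26 after centring. With 0 to 4 h only, KDM1A (-0.10), KDM2B (-0.33), KDM3A (-0.25), KDM5A (-0.37), KDM5B (-0.15) and KDM6B (-0.35) turned below 0. KDM5A did so after centring (-0.02), and KDM4A turned to or above 0 with 0 to 8 h and without 1 library (0.0016). These were all 9 sign changes among 359 slope values of the 10 mRNAs. Other genes turned sign with 0 to 4 h, namely KDM4B (-0.052), SETD1A (-0.17), YAF2 (-0.18) and P3H1 (-0.072), and U2AF2 did so after centring (-0.011). The cause was not tested. KDM6B was dropped when all 24 libraries had to be above 0. Of 640 alternative half-lives, 65 moved by more than the replicate SD, and JMJD6 in sgCNOT3 ranged from 9.70 h to 24.0 h, the limit.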
